A study of Mus musculus with 48 samples.

Results

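Loss of 1 copy of Plcg2 was compared with its intact counterpart in the cortex of female 5xFAD mice, with 6 mice per genotype, all aged 7.5 months. The 2 groups were 5xFAD Plcg2+/- females (labelled as Plcg2 knockout heterozygotes on the 5xFAD background) and 5xFAD females, and both carry the 5xFAD transgenes. The 12 female samples were chosen by their labels from the 24 samples run on the nCounter Glial panel, out of 48 samples in all. The other 12 Glial samples came from males of the same genotypes, and the remaining 24 samples were the same mice, by animal number, on the nCounter Neuropathology panel. Both panels count RNA molecules directly with gene-specific coloured barcodes, without amplification, and the Glial panel reads 757 genes. Neither panel reads Plcg2, so the dose of the deleted gene was not checked here. The 5xFAD line is a mouse model of Alzheimer's disease that carries mutant human transgenes, APP among them, under the Thy1 promoter, which drives them in neurons. The labels do not say which allele disrupts Plcg2, and no sample of a mouse without the 5xFAD transgenes was analysed here.

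PLCG2 (phospholipase C gamma 2) is an enzyme that in the brain is found mainly in microglia, the resident macrophages. It acts below receptors such as TREM2 and CSF1R and below Fc receptors: when the adaptor TYROBP is phosphorylated, PLCG2 cleaves a membrane lipid into diacylglycerol and inositol trisphosphate, and inositol trisphosphate releases calcium through the ITPR receptors. Human variants of PLCG2 alter the risk of Alzheimer's disease. Around amyloid plaques microglia lower genes of their resting state, such as P2ry12 and Tmem119, and raise a plaque-associated programme that includes Clec7a, Itgax, Cst7, Lpl and Apoe.

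Molecule counts recovered from the deposited values summed to 1773331 to 1897264 per mouse in Plcg2+/- females and to 953461 to 1239109 in 5xFAD females. The ranges did not overlap, and the mean total was 1.63 times as high in Plcg2+/- females (two-sided exact permutation test, p = 0.00216, the smallest p this design allows). The authors' scaling removed this difference in large part, since the medians of the 757 genes were 9.25 to 9.30 on the log2 scale in Plcg2+/- females and 9.14 to 9.28 in 5xFAD females, a difference of 0.061 (exact permutation test, p = 0.0325). Medians were higher in males, at 9.40 to 9.47 in Plcg2+/- males and 9.41 to 9.51 in 5xFAD males. The 2 genotypes also carry separate ranges of animal numbers (8 to 51 in Plcg2+/- females and 1180 to 1253 in 5xFAD females), so genotype and any cohort or run that these numbers may mark cannot be told apart. Plcg2+/- female 12 stood apart from the other mice of its genotype: it lay outside the range of the other 5 in 474 of 757 genes (the others in 169 to 237) and carried a share of 0.73 of the genotype difference (the others 0.93 to 1.06). The labels name each mouse separately, so the spread below is between mice. Cortical markers were read at high levels in every female. The neuronal Syn1 had at least 9186 normalized counts in Plcg2+/- females and 6968 in 5xFAD females, and the astrocytic Gfap at least 6114 in Plcg2+/- females and 5895 in 5xFAD females. The myelin gene Mbp had at least 2030 in Plcg2+/- females and 2192 in 5xFAD females, and the microglial Csf1r at least 1465 in Plcg2+/- females and 1044 in 5xFAD females. In whole tissue, fewer cells of a type and less RNA per cell cannot be told apart.

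Of the 757 genes 261 were higher in Plcg2+/- females (34.5%) and 154 were lower (20.3%), at an adjusted p under 0.05 in limma's moderated test. The differences were mostly small, with a median size of 0.40 on the log2 scale among the 415 genes that passed, and 20 of these exceeded 1. Differences are given throughout as the log2 value of Plcg2+/- females minus that of 5xFAD females, with the standard error of the fit, and levels as normalized counts. Samples of the genotypes did not overlap in 115 genes with Plcg2+/- females on top (15.2%) and in 86 genes with Plcg2+/- females below (11.4%). The balance of directions depended on scaling: 62.9% of the genes that passed were higher, but when each sample was centred on its median 221 were higher (29.2%) and 205 lower (27.1%), and the share fell to 51.9%. Without Plcg2+/- female 12 the counts were 272 and 157. The counts for gene lists on the Glial panel, below, are to be read against the 34.5% higher and 20.3% lower among all genes.

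A good part of the surplus of higher genes lay at the lower end of the counting range. Of the 70 genes with a geometric mean under 20 normalized counts, called dim below, 36 were higher and 0 lower, with a median difference of 0.81. Among the 687 brighter genes 225 were higher and 154 lower, with a median difference of 0.05, and the median over all 757 was 0.08. The median recovered count of a dim gene was 14.5 to 18 per Plcg2+/- female and 4 to 6 per 5xFAD female. That gap is wider than the 1.63-fold gap in total counts, and the part that depth has in the differences of dim genes was not tested.

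**Figure D1:**
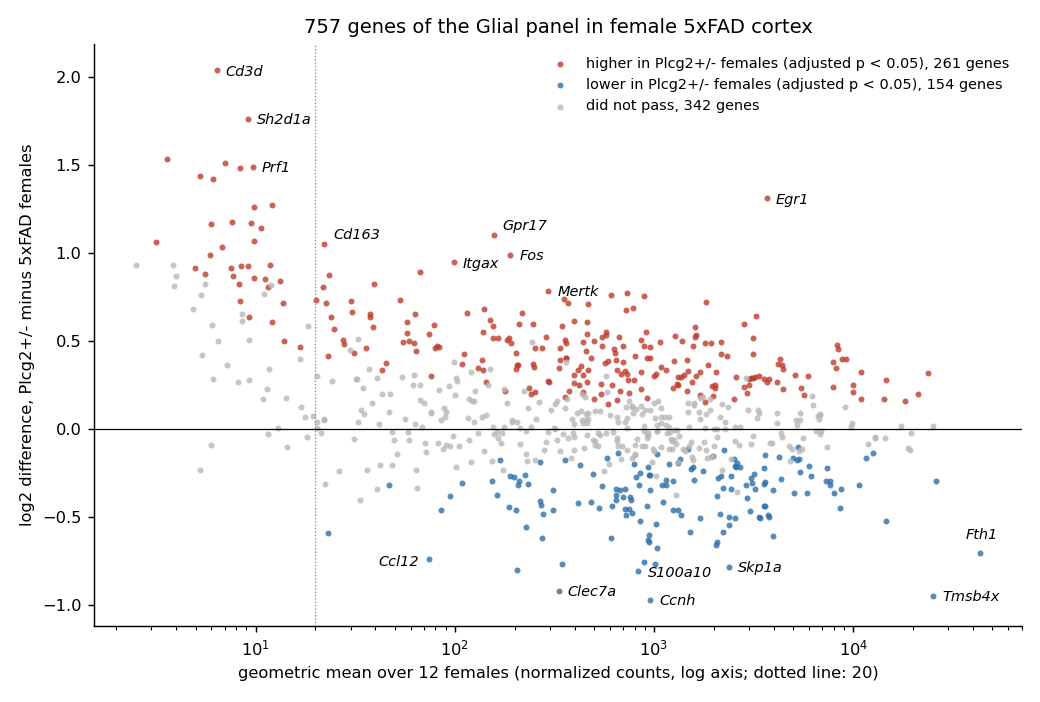
Log2 difference between Plcg2+/- and 5xFAD females (vertical axis) against the geometric mean level over the 12 females (horizontal log axis, normalized counts), 1 point per gene, coloured by the limma call. The 261 higher genes fan out upward below 20 normalized counts, where Cd3d reaches 2.04, while the 154 lower genes all lie above 20, with Tmsb4x and Fth1 at the bright end.

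The lowest differences among the brighter genes fell on genes of several cell functions. Ccnh, a cyclin of the transcription machinery, had 546 to 1023 normalized counts (median 625) in Plcg2+/- females, against 1114 to 1474 (median 1373) in 5xFAD females, a difference of -0.97 ± 0.15, adjusted p = 1.4e-05. Tmsb4x, which encodes the actin-sequestering thymosin beta 4 and is abundant in microglia, had 16291 to 19927 normalized counts (median 18022) in Plcg2+/- females, against 29141 to 40463 (median 36874) in 5xFAD females. The groups were far apart for Tmsb4x, and its difference of -0.95 ± 0.07 had the smallest adjusted p on the panel (3.94e-09). Clec7a, the beta-glucan receptor dectin-1 and a marker of plaque-associated microglia, had 227 to 266 normalized counts (median 239.5) in Plcg2+/- females, against 353 to 575 (median 461) in 5xFAD females. Every Plcg2+/- female was below every 5xFAD female for Clec7a, which was 1.89 times lower (-0.92 ± 0.12, adjusted p = 2.58e-06). S100a10, a calcium-binding protein that partners annexin A2, had 581 to 688 normalized counts (median 632) in Plcg2+/- females, against 921 to 1269 (median 1117) in 5xFAD females (-0.81 ± 0.07, adjusted p = 5.23e-08). Fth1, the heavy chain of the iron store ferritin and the most highly counted gene in each of the 12 females, had 30898 to 36019 normalized counts (median 34445) in Plcg2+/- females, against 48530 to 62840 (median 56465) in 5xFAD females. The difference for Fth1 was -0.71 ± 0.07, adjusted p = 5.23e-08, and quantile normalization, which gives the top gene of every sample 1 value, leaves none.

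The remaining genes of the 12 lowest showed the same separation with 1 exception. Selenos, a selenoprotein of the endoplasmic reticulum, fell by 0.81 ± 0.11 and Skp1a, the adaptor of SCF ubiquitin ligases, by 0.78 ± 0.07. Ncam2, a neuronal adhesion molecule, fell by 0.77 ± 0.10, and Arpc5l, of the ARP2/3 complex that branches actin filaments, by 0.76 ± 0.10. The monocyte chemokine Ccl12 fell by 0.74 ± 0.14 and the proteasome subunit Psma5 by 0.68 ± 0.07. In these 6 genes every Plcg2+/- female was below every 5xFAD female. Aif1, which encodes the microglial protein IBA1, fell by 0.77 ± 0.14 (adjusted p = 9.36e-05), and there the highest Plcg2+/- female (357) lay above the lowest 5xFAD female (316).

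Highest among the brighter genes was Egr1, a zinc-finger transcription factor that neurons switch on with activity. It had 5521 to 6012 normalized counts (median 5776) in Plcg2+/- females, against 1998 to 2618 (median 2405) in 5xFAD females, 2.48 times as much, and the groups were wide apart (1.31 ± 0.16, adjusted p = 6.8e-07). Gpr17, a receptor of oligodendrocyte precursors on their way to maturity, had 196 to 282 normalized counts (median 222) in Plcg2+/- females, against 81.7 to 136 (median 108) in 5xFAD females (1.10 ± 0.13, adjusted p = 6.8e-07). Cd163, the haemoglobin scavenger receptor of border macrophages, had 27.0 to 40.6 normalized counts (median 30.4) in Plcg2+/- females, against 11.7 to 23.7 (median 14.9) in 5xFAD females (1.05 ± 0.19, adjusted p = 8.14e-05). Its levels lay close to the dim range, although the groups did not overlap. Itgax, the integrin CD11c, had 95.1 to 173 normalized counts (median 149.9) in Plcg2+/- females, against 44.8 to 102 (median 72.7) in 5xFAD females, with a single pair of mice out of order (0.95 ± 0.18, adjusted p = 0.000104). Clec7a and Itgax both mark plaque-associated microglia, and they differed in opposite directions between the same mice.

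Mertk, a receptor with which microglia and astrocytes engulf apoptotic cells and synapses, had 314 to 428 normalized counts (median 404) in Plcg2+/- females, against 200.1 to 259.7 (median 224) in 5xFAD females (0.78 ± 0.09, adjusted p = 6.59e-07). Etv5, a transcription factor below FGF signalling in glia, rose by 0.77 ± 0.11, and Mtor, the growth-controlling kinase, by 0.76 ± 0.12. The ectonucleotidase gene Entpd2 rose by 0.89 ± 0.16 and Stab1, a scavenger receptor of macrophages and endothelium, by 0.82 ± 0.16. In these 5 genes the genotypes did not overlap. Ret, a receptor for GDNF-family ligands, rose by 0.87 ± 0.20 and Th, the tyrosine hydroxylase of catecholamine synthesis, by 0.81 ± 0.24, both near the dim range and with overlapping mice. The call for Th (adjusted p = 0.00682) was lost with quantile normalization (0.44, adjusted p = 0.0931).

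Several early-response genes of neuronal activity, which are transcribed within minutes of a signal, were higher. Of 4 measured on the Glial panel 2 rose and 0 fell, with a median difference of 0.58 against 0.08 for all genes. Fos, a subunit of the AP-1 transcription factor, had 227 to 319 normalized counts (median 264) in Plcg2+/- females, against 79.4 to 229.5 (median 144) in 5xFAD females (0.99 ± 0.22, adjusted p = 0.000804), with a single pair of mice out of order. Jun, its partner, differed by 0.17 ± 0.09 (adjusted p = 0.112) and the growth factor gene Bdnf by 0.03 ± 0.11 (adjusted p = 0.852), and neither passed on the Glial panel. The Neuropathology panel reads 9 early-response genes in the same mice, of which 6 rose and 1 fell, where 35.3% of all genes on that panel rose and 18.9% fell. With median centring 5 of the 9 rose and 1 fell, and without female 12 5 rose and 2 fell. Arc, which acts on glutamate receptor trafficking at synapses, had 776 to 1093 normalized counts (median 791) in Plcg2+/- females, against 226 to 450.4 (median 362) in 5xFAD females there (1.31 ± 0.18, adjusted p = 5.81e-06). For Nr4a2, an orphan nuclear receptor, the values were 717 to 946 normalized counts (median 773) in Plcg2+/- females, against 418 to 532 (median 454) in 5xFAD females (0.76 ± 0.10, adjusted p = 3.11e-06). Neither Arc nor Nr4a2 overlapped between genotypes. Egr2 rose by 1.17 ± 0.27, Egr1 by 1.35 ± 0.15 and Fos by 0.65 ± 0.23 on that panel. The call for Fos was lost there without 5xFAD female 1189 (0.46, adjusted p = 0.0571). Promoter sequence is shown for Fos and Nr4a2, each with a single promoter window in the RefSeq-derived table, and windows of the other early-response genes are not reported here. Both windows hold the core of the cyclic AMP response element, the site through which calcium and cyclic AMP signals are known to switch on Fos. The 150 bases before each transcription start are shown 5′ to 3′ on the gene's strand, with TGACG or its reverse complement CGTCA in capitals (build GRCm38.p6, chr12:85473740-85473889 on the plus strand and chr2:57124004-57124153 on the minus strand).
Fos: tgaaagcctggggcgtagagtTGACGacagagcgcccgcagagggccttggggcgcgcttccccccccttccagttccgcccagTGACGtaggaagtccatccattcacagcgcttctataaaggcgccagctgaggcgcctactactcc
Nr4a2: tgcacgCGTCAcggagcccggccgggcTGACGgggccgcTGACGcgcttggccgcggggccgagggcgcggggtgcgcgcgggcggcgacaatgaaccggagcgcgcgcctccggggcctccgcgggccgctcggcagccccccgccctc
The matches in Fos begin 129 and 66 bases before the start and those in Nr4a2 begin 144, 123 and 111 bases before it. On either strand, 17.8% of the 32851 windows of 250 upstream bases in the table hold the motif at least once, so a match describes the window and does not mark a bound site.

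Microglial genes moved in both directions. Among 29 measured genes of the plaque-associated list 8 were lower, 4 were higher and 17 did not pass, with a median difference of -0.07 against 0.08 for all genes. The list's summed level did not overlap between genotypes, at 77488 to 91426 normalized counts in Plcg2+/- females and 101424 to 124850 in 5xFAD females, but Fth1 makes up a large share of that sum. The median sums were 86857 in Plcg2+/- females and 106352 in 5xFAD females, and the medians of Fth1 alone lay further apart than these. The separation of the sums therefore does not describe the other members. Cd9, a tetraspanin, had 754 to 949.6 normalized counts (median 867) in Plcg2+/- females, against 1093 to 1423 (median 1204) in 5xFAD females (-0.54 ± 0.09, adjusted p = 2.71e-05). For Tyrobp, the adaptor through which TREM2 signals, the values were 1626 to 2106 normalized counts (median 1777) in Plcg2+/- females, against 2000 to 3055 (median 2543) in 5xFAD females (-0.49 ± 0.11, adjusted p = 0.00063). The groups were apart for Cd9 and met at 1 edge for Tyrobp. Trem2 itself had 461 to 691 normalized counts (median 551) in Plcg2+/- females, against 444 to 830.2 (median 649) in 5xFAD females, with a difference of -0.20 ± 0.16 that did not pass (adjusted p = 0.285). On the Neuropathology panel Trem2 had 727 to 1201 normalized counts (median 939) in Plcg2+/- females, against 1134 to 1516 (median 1239) in 5xFAD females, and there it was lower (-0.47 ± 0.16, adjusted p = 0.0157). Other markers of the state did not pass: Cst7, a cysteine protease inhibitor, differed by -0.08 ± 0.15 (adjusted p = 0.688) and Apoe, the lipid carrier, by -0.02 ± 0.14 (adjusted p = 0.933). Apoe had 5330 to 8796 normalized counts (median 6429) in Plcg2+/- females, against 4240 to 8404 (median 7009) in 5xFAD females, so mice of each genotype were widely spread. Lpl, lipoprotein lipase, was lower by a small margin (-0.26 ± 0.09, adjusted p = 0.0206), and this call was lost without Plcg2+/- female 12 or either of the 5xFAD females 1248 and 1249 (adjusted p = 0.0512 to 0.0588).

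In the homeostatic list 6 of 20 measured genes rose, 2 fell and 12 did not pass, with a median difference of 0.14, shares near those of all genes (34.5% higher and 20.3% lower). On the Neuropathology panel 0 of the 7 members read rose and 2 fell, with a median of -0.13. Csf1r, the receptor on which microglia depend for survival, had 1465 to 1795 normalized counts (median 1649) in Plcg2+/- females, against 1044 to 1360 (median 1151) in 5xFAD females (0.50 ± 0.09, adjusted p = 6.69e-05). Sall1, a transcription factor of microglial identity, had 202 to 252 normalized counts (median 234) in Plcg2+/- females, against 142 to 190.0 (median 161) in 5xFAD females (0.49 ± 0.09, adjusted p = 8.62e-05). The groups did not overlap for either gene, but on the Neuropathology panel Csf1r differed by -0.15 ± 0.15 and did not pass (adjusted p = 0.429). Rhob, a small GTPase, rose by 0.46 ± 0.08 and Tmem119, a microglial surface protein, by 0.55 ± 0.17 (adjusted p = 0.00885), the call for Tmem119 being lost with quantile normalization (0.37, adjusted p = 0.0564). The receptor gene Gpr34 was lower (-0.38 ± 0.09, adjusted p = 0.00171). P2ry12, the ADP receptor that resting microglia use to sense damage, differed by 0.07 ± 0.09 (adjusted p = 0.532) and Cx3cr1, the fractalkine receptor, by 0.21 ± 0.14 (adjusted p = 0.194, and 0.0492 without 5xFAD female 1248). On the Neuropathology panel Cx3cr1 went the other way, with 362 to 789 normalized counts (median 399) in Plcg2+/- females, against 674 to 1094 (median 778) in 5xFAD females (-0.89 ± 0.24, adjusted p = 0.00373). Of 15 measured markers shared by microglia and macrophages 2 rose (Csf1r and Itgam) and 2 fell (Aif1 and Tyrobp). Itgam, the integrin CD11b, had 249 to 326 normalized counts (median 275) in Plcg2+/- females, against 165 to 276 (median 226) in 5xFAD females (0.35 ± 0.10, adjusted p = 0.00377). Summed over the 15 markers the level was 18799 to 23136 normalized counts in Plcg2+/- females and 18309 to 25445 in 5xFAD females, so the ranges overlapped almost fully while single markers moved apart.

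**Figure D2:**
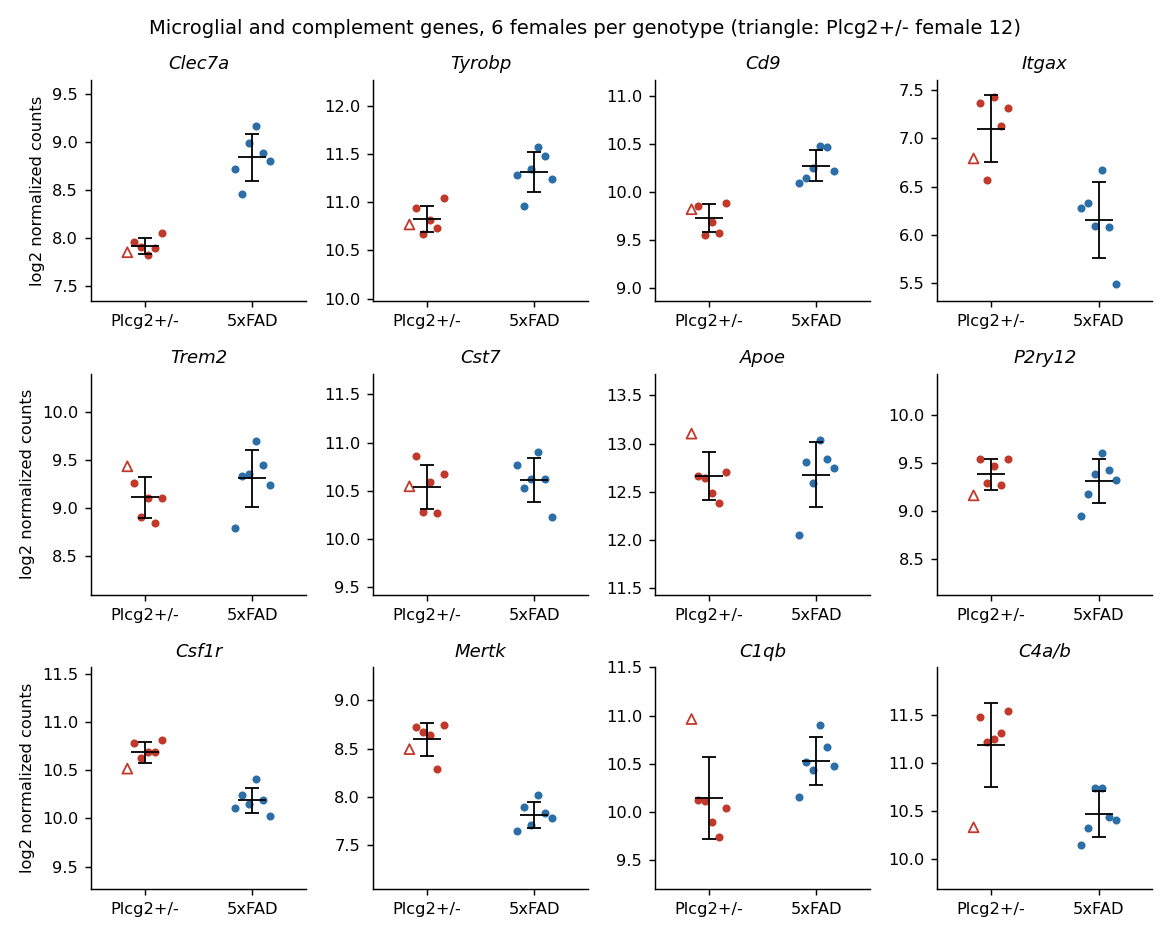
Log2 normalized counts of 12 microglial and complement genes in each female, Plcg2+/- (red) left of 5xFAD (blue), with the mean and SD (bars) of 6 mice and female 12 as an open triangle. Each vertical axis spans the same range of 2.3 log2 units. Clec7a and Cd9 lie lower and Csf1r and Mertk higher in Plcg2+/- females without overlap, Trem2, Cst7, Apoe and P2ry12 overlap, and female 12 leaves its group for C1qb and C4a/b.

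Signalling genes around PLCG2 were read in part. Of 12 measured genes of TREM2, Fc receptor and PLCG2 signalling 5 were lower and 2 higher, with a median difference of -0.17, and with median centring 5 were lower and 1 higher. The Neuropathology panel reads 15 genes of this list, of which 1 was lower (Trem2) and 5 higher, with a median of 0.12, or 4 lower and 1 higher with median centring. Besides Clec7a and Tyrobp the lower genes were Fcgr1 and Fcgr4, both activating Fc receptors for IgG, and Grb2, an adaptor of receptor tyrosine kinases. Fcgr1 had 148 to 232 normalized counts (median 178) in Plcg2+/- females, against 204 to 247 (median 235) in 5xFAD females (-0.32 ± 0.10, adjusted p = 0.00677), and Fcgr4 fell by 0.59 ± 0.22, a call that was lost without any 1 of 6 females (3 of each genotype, adjusted p = 0.0517 to 0.0733). Grb2 differed little (-0.15 ± 0.05, adjusted p = 0.0257), and its call was lost without either of the Plcg2+/- females 8 and 18 or the 5xFAD females 1248 and 1253 (adjusted p = 0.0525 to 0.0716) and with quantile normalization (adjusted p = 0.0842). Itpr1, the calcium channel opened by the product of PLCG2 but expressed mainly in neurons, had 3936 to 4862 normalized counts (median 4706) in Plcg2+/- females, against 3504 to 4089 (median 3759) in 5xFAD females (0.27 ± 0.07, adjusted p = 0.0028).

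Complement genes were higher in part, on a panel where 34.5% of all genes rose and 20.3% fell. Of 12 measured genes 6 rose and 0 fell, the risen ones including the complement receptor chains Itgax and Itgam, with a median difference of 0.39, and 3 of the 12 were dim. With quantile normalization 3 rose and 0 fell. C4a and C4b share a probe (C4a/b), and it had 1290 to 2981 normalized counts (median 2488) in Plcg2+/- females, against 1133 to 1716 (median 1374) in 5xFAD females (0.72 ± 0.21, adjusted p = 0.00536). In Plcg2+/- female 12 C4a/b stood at 1290, far below the other mice of the genotype. C1ra, a protease of the first complement component, rose by 0.43 ± 0.12 (adjusted p = 0.00559; 0.14, adjusted p = 0.3 with quantile normalization) and Cfi, the inactivating protease, by 0.72 ± 0.23 in the dim range, where quantile normalization turned it to -0.07 (adjusted p = 0.797). The chains of C1q, which microglia make, did not pass: C1qa differed by -0.23 ± 0.14 (adjusted p = 0.171), C1qb by -0.38 ± 0.21 (adjusted p = 0.129) and C1qc by -0.13 ± 0.13 (adjusted p = 0.422). For C1qb 1 mouse decided the call. Female 12 had 1997 normalized counts, above all 5xFAD females, and without it the difference was -0.54 and its adjusted p 0.0197.

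Interferon and antigen presentation genes showed no common direction, on a panel where 34.5% of all genes rose and 20.3% fell. Of 8 measured interferon-response genes 3 rose and 1 fell (2 and 2 with median centring). Stat2, a transcription factor of the interferon response, rose (0.43 ± 0.09, adjusted p = 0.000571) without overlap of the genotypes. The antiviral GTPase Mx1 rose in the dim range (1.18 ± 0.38, adjusted p = 0.0122), though quantile normalization left 0.35 (adjusted p = 0.426). Psmb8, a subunit of the immunoproteasome, was lower (-0.38 ± 0.13, adjusted p = 0.021), but not without Plcg2+/- female 12 or 5xFAD female 1190 (adjusted p = 0.0532 and 0.0595). The interferon-induced Ifit1 and Ifit3 differed by 0.06 ± 0.20 and -0.06 ± 0.13 (adjusted p = 0.821 and 0.722). Of 7 measured antigen presentation genes 2 rose and 2 fell. H2-T23, a non-classical class I molecule, had 122 to 212 normalized counts (median 179) in Plcg2+/- females, against 227 to 264 (median 236) in 5xFAD females, with no overlap (-0.46 ± 0.10, adjusted p = 0.00061), while the classical H2-D1 rose by 0.22 ± 0.09 (adjusted p = 0.048), a call that was lost with median centring (adjusted p = 0.101) and without any 1 of 8 females (adjusted p = 0.0584 to 0.12).

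Among 15 measured cytokine and NF-kB genes 4 rose and 3 fell, where 34.5% of all genes rose and 20.3% fell. The median difference of the list was 0.12. Il18, a cytokine released by inflammasomes, had 257 to 275 normalized counts (median 266) in Plcg2+/- females, against 304 to 424 (median 367) in 5xFAD females, and the genotypes were apart (-0.46 ± 0.07, adjusted p = 2.35e-05). Ptgs2, the inducible cyclooxygenase that neurons also express, had 177 to 222 normalized counts (median 195) in Plcg2+/- females, against 119 to 166 (median 135) in 5xFAD females, again apart (0.51 ± 0.12, adjusted p = 0.000996). The other higher genes named by the rule were dim: Ccl2, a monocyte chemokine, rose by 0.93 ± 0.18 and Tnf by 0.82 ± 0.21. Neither passed with quantile normalization (0.33 for Ccl2, adjusted p = 0.166, and 0.03 for Tnf, adjusted p = 0.91), under which 1 gene of the list rose and 4 fell.

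Lymphocyte and natural killer cell markers were higher in large part, at very low counts. Of 27 measured markers 16 rose and 0 fell, with a median difference of 0.87, but 24 of the 27 were dim, and the median of all 70 dim genes was 0.81. Cd3d, part of the CD3 complex of T cells, had 13 to 26 recovered counts in Plcg2+/- females and 1 to 5 in 5xFAD females (2.04 ± 0.33, adjusted p = 2.51e-05). Sh2d1a, the lymphocyte adaptor SAP, had 16 to 26 in Plcg2+/- females and 2 to 7 in 5xFAD females (1.76 ± 0.23, adjusted p = 2.21e-06). For the pore-forming protein gene Prf1 the recovered counts were 18 to 25 in Plcg2+/- females and 2 to 8 in 5xFAD females (1.49 ± 0.27, adjusted p = 7.43e-05). The genotypes did not overlap for these 3 genes after scaling. Gzma, a granule protease, rose by 1.48 ± 0.33, Foxp3, the regulator of regulatory T cells, by 1.53 ± 0.41, the receptor gene Klrk1 by 1.43 ± 0.26 and Spib, a transcription factor of B cells and dendritic cells, by 1.14 ± 0.22. Slc10a6, a steroid sulphate transporter counted among reactive astrocyte genes, completes the 6 highest dim genes (1.51 ± 0.45, adjusted p = 0.00714). The summed level of the 27 markers was 470 to 529 normalized counts in Plcg2+/- females and 355 to 420 in 5xFAD females. With quantile normalization 4 of the 27 were higher and 3 lower, with a median of 0.09, and Gzma, Foxp3, Klrk1, Spib and Slc10a6 did not pass. With all values under 20 set to 20 each of the named dim genes had by construction no difference left, since every mouse lay under 20.

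Markers of border macrophages, monocytes, neutrophils and mast cells gave 5 higher and 1 lower of 13 measured, 9 of them dim, and 2 higher and 1 lower with quantile normalization. Fpr1, the formyl peptide receptor of myeloid cells, had 14 to 26 recovered counts in Plcg2+/- females and 3 to 7 in 5xFAD females (1.06 ± 0.17, adjusted p = 2.06e-05). Ceacam3 and Cpa3, a mast cell protease, rose by 1.04 ± 0.27 and 0.92 ± 0.31, and with quantile normalization they differed by 0.17 and -0.04 (adjusted p = 0.603 and 0.91). The lower gene, Hsd11b1, which regenerates active glucocorticoid and is not confined to these cells, was well counted. It had 163 to 211 normalized counts (median 187) in Plcg2+/- females, against 249.5 to 343 (median 269) in 5xFAD females, without overlap (-0.56 ± 0.09, adjusted p = 3.75e-05). Summed over the list the level was 609 to 734 normalized counts in Plcg2+/- females and 648 to 820 in 5xFAD females. The part of such cells in the results above was not tested.

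Lysosomal genes moved in both directions. Of 22 measured genes 7 fell and 4 rose, with a median difference of -0.05, against 20.3% lower and 34.5% higher among all genes. Of the 7 lower genes 6 were subunits of the vacuolar proton pump that acidifies lysosomes and synaptic vesicles. Atp6v1d had 3077 to 3415 normalized counts (median 3167) in Plcg2+/- females, against 3689 to 4158 (median 3988) in 5xFAD females (-0.32 ± 0.04, adjusted p = 3.48e-06), with no overlap. Atp6v1e1 fell by 0.51 ± 0.08 and Atp6v1h by 0.61 ± 0.10, and in both genes female 12 was the highest of its genotype, at 3626 and 4578 normalized counts. Atp6v1a, another subunit, differed by 0.23 ± 0.09 in the other direction (adjusted p = 0.0336), a call that was lost with median centring (0.17, adjusted p = 0.0826), with upper-quartile centring (adjusted p = 0.0548) and without any 1 of 5 females (adjusted p = 0.0523 to 0.105). Grn, which encodes the lysosomal protein progranulin, had 1012 to 1260 normalized counts (median 1187) in Plcg2+/- females, against 452 to 841 (median 706) in 5xFAD females, all Plcg2+/- females above all 5xFAD females (0.75 ± 0.11, adjusted p = 1.08e-05). On the Neuropathology panel Grn differed by -0.13 ± 0.18 and did not pass (adjusted p = 0.556).

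Autophagy genes were divided evenly, with 4 higher and 4 lower of 9 measured. The higher genes were Ulk1, Tsc1, Sqstm1 and Mtor. Ulk1, the initiating kinase, had 241 to 298 normalized counts (median 278) in Plcg2+/- females, against 154 to 194 (median 176) in 5xFAD females (0.66 ± 0.08, adjusted p = 1e-06). Tsc1, an inhibitor of mTOR, rose by 0.50 ± 0.06 and Sqstm1, the cargo receptor p62, by 0.37 ± 0.06. Mtor itself rose by 0.76 ± 0.12, and Becn1 differed by 0.16 ± 0.09 and did not pass (adjusted p = 0.133). Atg5, needed to lengthen the autophagosome membrane, had 386 to 442 normalized counts (median 424) in Plcg2+/- females, against 519 to 597 (median 564) in 5xFAD females (-0.42 ± 0.05, adjusted p = 6.8e-07). The other lower genes of the list were Map1lc3b, Gabarapl1 and Atg12, which belong with Atg5 to the conjugation machinery. Of 5 measured lipid genes Acly, which makes acetyl-CoA for lipid synthesis, rose (0.52 ± 0.08, adjusted p = 1.78e-05), Fabp5, a fatty acid carrier, fell (-0.27 ± 0.09, adjusted p = 0.0132) along with Lpl, and Apoe and Abca1 did not pass.

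Most oligodendrocyte precursor genes were higher. Of 6 measured genes 4 rose and 0 fell, with a median difference of 0.48 against 0.08 for all genes. With median centring 4 rose and 0 fell, and with quantile normalization also 4 and 0, with Ptprz1 among them in place of Pdgfra. Sox10, the lineage transcription factor, had 454 to 529.6 normalized counts (median 491) in Plcg2+/- females, against 234 to 372 (median 349) in 5xFAD females (0.61 ± 0.08, adjusted p = 3.48e-06). Cspg4, the proteoglycan NG2 that pericytes also carry, had 131 to 211 normalized counts (median 191) in Plcg2+/- females, against 100.3 to 134 (median 108) in 5xFAD females (0.68 ± 0.13, adjusted p = 0.00015). Gpr17 and Sox10 were apart between genotypes, while Cspg4 overlapped at 1 edge. Pdgfra, the growth factor receptor of precursors, rose by 0.35 ± 0.12 (adjusted p = 0.0132), a call that quantile normalization ended (adjusted p = 0.113). Ptprz1 and Olig2 differed by 0.29 ± 0.13 and 0.30 ± 0.15 and did not pass (adjusted p = 0.0582 and 0.086). Without female 12 both passed, at 0.39 for Ptprz1 (adjusted p = 0.00895) and 0.37 for Olig2 (adjusted p = 0.0413). Olig2 also passed without 5xFAD female 1248 (0.41, adjusted p = 0.0139), and Ptprz1 with quantile normalization, array weights, voom, females alone and eBayes with its trend and robust options (adjusted p = 0.000475 to 0.045).

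Genes of mature oligodendrocytes were mixed, with shares near those of all genes (34.5% higher and 20.3% lower). Of 16 measured 5 rose and 3 fell, or 5 and 5 with median centring, with a median difference of -0.01. Mag, a glycoprotein of the innermost myelin layer, had 501 to 566 normalized counts (median 535) in Plcg2+/- females, against 280.4 to 441 (median 418) in 5xFAD females (0.44 ± 0.10, adjusted p = 0.000518), Fa2h, which makes hydroxylated myelin lipids, rose by 0.50 ± 0.08 and Myrf, the transcription factor of myelination, by 0.46 ± 0.09. Bcas1, a marker of cells that are forming myelin, went the other way, with 578 to 800.3 normalized counts (median 643) in Plcg2+/- females, against 821 to 1048 (median 916) in 5xFAD females and no overlap (-0.48 ± 0.09, adjusted p = 9.36e-05). Mbp, which encodes the myelin basic protein, differed by -0.17 ± 0.09 and did not pass (adjusted p = 0.0956), although it passed with median centring (-0.23, adjusted p = 0.0205) and without 5xFAD female 1190 (-0.22) or Plcg2+/- female 12 (-0.21).

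Astrocyte identity genes gave 5 higher and 1 lower of 8 measured, with a median difference of 0.26. Aldh1l1, a folate enzyme used as a pan-astrocyte marker, had 765 to 898 normalized counts (median 822) in Plcg2+/- females, against 523 to 675 (median 588) in 5xFAD females (0.47 ± 0.08, adjusted p = 5.38e-05). The glutamate transporter gene Slc1a3 had 4297 to 5539 normalized counts (median 5074) in Plcg2+/- females, against 3533 to 4187 (median 3904) in 5xFAD females (0.36 ± 0.08, adjusted p = 0.000787). Both were apart between genotypes, as were Egfr (0.66 ± 0.11) and the transcription factor gene Sox9 (0.46 ± 0.10). On the Neuropathology panel Sox9 was lower (-0.67 ± 0.20, adjusted p = 0.00894). There 3 of the 7 astrocyte identity genes read rose and 2 fell, with a median of 0.13. S100b, a calcium-binding protein, was lower (-0.44 ± 0.09, adjusted p = 0.000466). Gfap, the intermediate filament of reactive astrocytes, differed by 0.07 ± 0.11 and the water channel gene Aqp4 by 0.11 ± 0.07, and neither passed (adjusted p = 0.578 and 0.217). Of 27 measured reactive astrocyte genes 5 rose, 2 fell and 20 did not pass, against 34.5% higher and 20.3% lower among all genes. Stat3, the transcription factor that drives astrocyte reactivity, had 659 to 786 normalized counts (median 691) in Plcg2+/- females, against 415 to 551 (median 485) in 5xFAD females (0.55 ± 0.08, adjusted p = 4.5e-06), and Nes, the filament protein nestin, rose by 0.58 ± 0.12, both without overlap.

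Vascular genes gave 4 higher and 2 lower of 13 measured, shares near those of all genes (34.5% and 20.3%), or 3 and 3 with quantile normalization. Tjp1, which anchors tight junctions, had 935 to 1089 normalized counts (median 1028) in Plcg2+/- females, against 637 to 828 (median 711) in 5xFAD females (0.51 ± 0.06, adjusted p = 1.05e-06), while Cldn5, the main claudin of brain endothelium, had 196 to 299 normalized counts (median 205) in Plcg2+/- females, against 258 to 455 (median 353) in 5xFAD females (-0.62 ± 0.15, adjusted p = 0.00115). These tight junction genes therefore went opposite ways, Tjp1 without overlap and Cldn5 with overlap at 1 edge. Flt1, a VEGF receptor, rose by 0.54 ± 0.14 and Vegfa, its ligand, fell by 0.26 ± 0.07.

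Neuronal genes moved in both directions. For excitatory neurons and their synapses, 9 of 24 measured genes rose, 2 fell and 13 did not pass, against 34.5% higher and 20.3% lower among all genes. With median centring 5 rose and 5 fell. On the Neuropathology panel 10 of the 33 members read rose and 6 fell, with a median of -0.04, where 35.3% of all genes rose and 18.9% fell. With median centring 5 rose and 10 fell there, and without female 12 8 rose and 9 fell. Shank2, a scaffold of the postsynaptic density, had 377 to 544 normalized counts (median 463) in Plcg2+/- females, against 243 to 298 (median 282) in 5xFAD females (0.73 ± 0.09, adjusted p = 8.61e-07). Camk2a, the kinase of synaptic plasticity, had 9295 to 10428 normalized counts (median 9893) in Plcg2+/- females, against 6354 to 8702 (median 6997) in 5xFAD females (0.45 ± 0.06, adjusted p = 3.22e-06), and Syn1, a synaptic vesicle protein, rose by 0.39 ± 0.08. In all 3 genes every Plcg2+/- female was above every 5xFAD female. The glutamate receptor subunits Grik2 and Gria4 fell by 0.43 ± 0.08 and 0.26 ± 0.07. Of 9 measured genes of inhibitory neurons 5 rose and 3 fell, with a median difference of 0.25, while on the Neuropathology panel 5 of the 17 members read rose and 8 fell, with a median of -0.23. Gad1, which makes GABA, had 2559 to 3116 normalized counts (median 2908) in Plcg2+/- females, against 2124 to 2530 (median 2340) in 5xFAD females (0.29 ± 0.08, adjusted p = 0.0026). Dlx2, a transcription factor of interneurons, rose by 0.64 ± 0.16 with overlapping mice, and with quantile normalization its adjusted p was 0.0507.

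Ion channel and axonal genes rose in larger part on the Glial panel, where 34.5% of all genes rose and 20.3% fell. Of 8 measured potassium and calcium channel genes 6 rose and 0 fell, with a median difference of 0.35. Kcnd1 and Kcnd2, which carry the A-type potassium current, rose by 0.73 ± 0.10 and 0.40 ± 0.06, Kcnq3, of the M current, by 0.55 ± 0.08, and the calcium channel genes Cacnb2 and Cacna1e by 0.27 ± 0.05 and 0.41 ± 0.08. The genotypes did not overlap for any of these except Cacna1e. Of 6 measured axon cytoskeleton genes 3 rose and 0 fell: the neurofilament genes Nefh and Nefl by 0.34 ± 0.06 and 0.32 ± 0.10, and Ank2, which anchors membrane proteins, by 0.34 ± 0.06. On the Neuropathology panel 8 of 14 channel genes rose and 1 fell. Of the 7 axon cytoskeleton genes read there 2 rose and 1 fell, with a median of -0.01, and 1 rose and 3 fell without female 12. Of 7 measured genes of cyclic AMP signalling 2 rose, Prkacb by 0.31 ± 0.06 and Adcy1 by 0.30 ± 0.07, and Prkar1a fell by 0.21 ± 0.05. Among 5 measured genes of 14-3-3 proteins Ywhag rose by 0.25 ± 0.06 and Ywhaq fell by 0.32 ± 0.06, and with median centring 1 rose and 4 fell.

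Genes of protein turnover were mostly lower on the Glial panel. All 4 measured genes of the proteasome list were lower, with a median difference of -0.57. Of 10 measured ubiquitin ligase genes 8 were lower and 1 higher, with a median of -0.53, against a background of 20.3% lower. The Neuropathology panel reads 8 ubiquitin ligase genes, of which 2 were lower and 1 higher, with a median of -0.17. On that panel 18.9% of all genes were lower. Psmc6, an ATPase of the proteasome cap, had 1514 to 1833 normalized counts (median 1662) in Plcg2+/- females, against 2158 to 3032 (median 2621) in 5xFAD females (-0.65 ± 0.07, adjusted p = 2.53e-07). Psmd14, the cap's deubiquitinase, had 1903 to 2100 normalized counts (median 1988) in Plcg2+/- females, against 2462 to 3060 (median 2847) in 5xFAD females (-0.50 ± 0.05, adjusted p = 8.95e-08). Neither gene overlapped between genotypes, nor did Psma5, which had 739 to 913 normalized counts (median 816) in Plcg2+/- females, against 1130 to 1423 (median 1343) in 5xFAD females. Psmc2 differed by -0.12 ± 0.04 with overlap, and its call was lost with quantile normalization (-0.04, adjusted p = 0.413) and without 5xFAD female 1190 (-0.10, adjusted p = 0.0596). Skp1a had 1640 to 2212 normalized counts (median 1759) in Plcg2+/- females, against 2827 to 3402 (median 3190) in 5xFAD females, and the cullin ligase parts Rbx1, Cul2 and Eloc fell by 0.51 ± 0.05, 0.62 ± 0.12 and 0.66 ± 0.13. Ube2n, the conjugating enzyme of lysine-63-linked chains, fell by 0.55 ± 0.06. None of these 5 overlapped between genotypes.

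Actin, mitochondrial and redox genes were also lower more often than higher on the Glial panel. Of 9 measured actin cytoskeleton genes 5 were lower and 1 higher, with a median difference of -0.30, against 20.3% lower and 34.5% higher among all genes. The Neuropathology panel reads 9 genes of this list, and there 0 were lower and 3 higher, with a median of 0.12. Arpc1a, another ARP2/3 subunit, had 1667 to 2042 normalized counts (median 1778) in Plcg2+/- females, against 2528 to 2849 (median 2767) in 5xFAD females (-0.59 ± 0.06, adjusted p = 5.23e-08). Cdc42, a small GTPase of cell protrusions, fell by 0.30 ± 0.04 and Rock2, a kinase below the GTPase RhoA, by 0.46 ± 0.11. Of 10 measured mitochondrial genes 5 were lower and 1 higher, with a median of -0.18. Tomm20, the import receptor of the outer membrane, had 2045 to 2301 normalized counts (median 2128) in Plcg2+/- females, against 2741 to 3297 (median 3058) in 5xFAD females (-0.51 ± 0.05, adjusted p = 5.23e-08). Vdac3, an outer membrane channel, fell by 0.44 ± 0.06, Ndufa10, of complex I, by 0.20 ± 0.04 and Atp5b, of the ATP synthase, by 0.27 ± 0.06, while the carrier gene Slc25a12 rose by 0.21 ± 0.05. Of 4 measured genes of oxidative stress and iron Fth1, Txn1 (thioredoxin, -0.47 ± 0.06) and Sod1 (superoxide dismutase, -0.50 ± 0.07) were lower and Hmox1, which degrades haem, was higher (0.43 ± 0.10). On the Neuropathology panel 4 of the 12 mitochondrial genes read were lower and 3 higher, with a median of -0.20. Of 11 oxidative stress and iron genes read there 3 were lower and 2 higher, with a median of -0.02.

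Genes of amyloid processing were higher in part. Of 8 measured 4 rose and 0 fell, or 4 and 2 with median centring, against 34.5% higher and 20.3% lower among all genes. On the Neuropathology panel 3 of the 13 members read rose and 1 fell, with a median of 0.11. There 35.3% of all genes rose and 18.9% fell. Bace1, the beta-secretase, had 596 to 731 normalized counts (median 687) in Plcg2+/- females, against 435 to 559.9 (median 539) in 5xFAD females (0.38 ± 0.08, adjusted p = 0.000261). The groups did not overlap for Bace1. App had 22455 to 28452 normalized counts (median 27352) in Plcg2+/- females, against 17037 to 24577 (median 21362) in 5xFAD females (0.32 ± 0.10, adjusted p = 0.01), with overlap. Cdk5r1, the activator of the kinase CDK5, rose by 0.33 ± 0.06. Whether the App probe also reads the human transgene is not given in the sources used here.

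**Figure D3:**
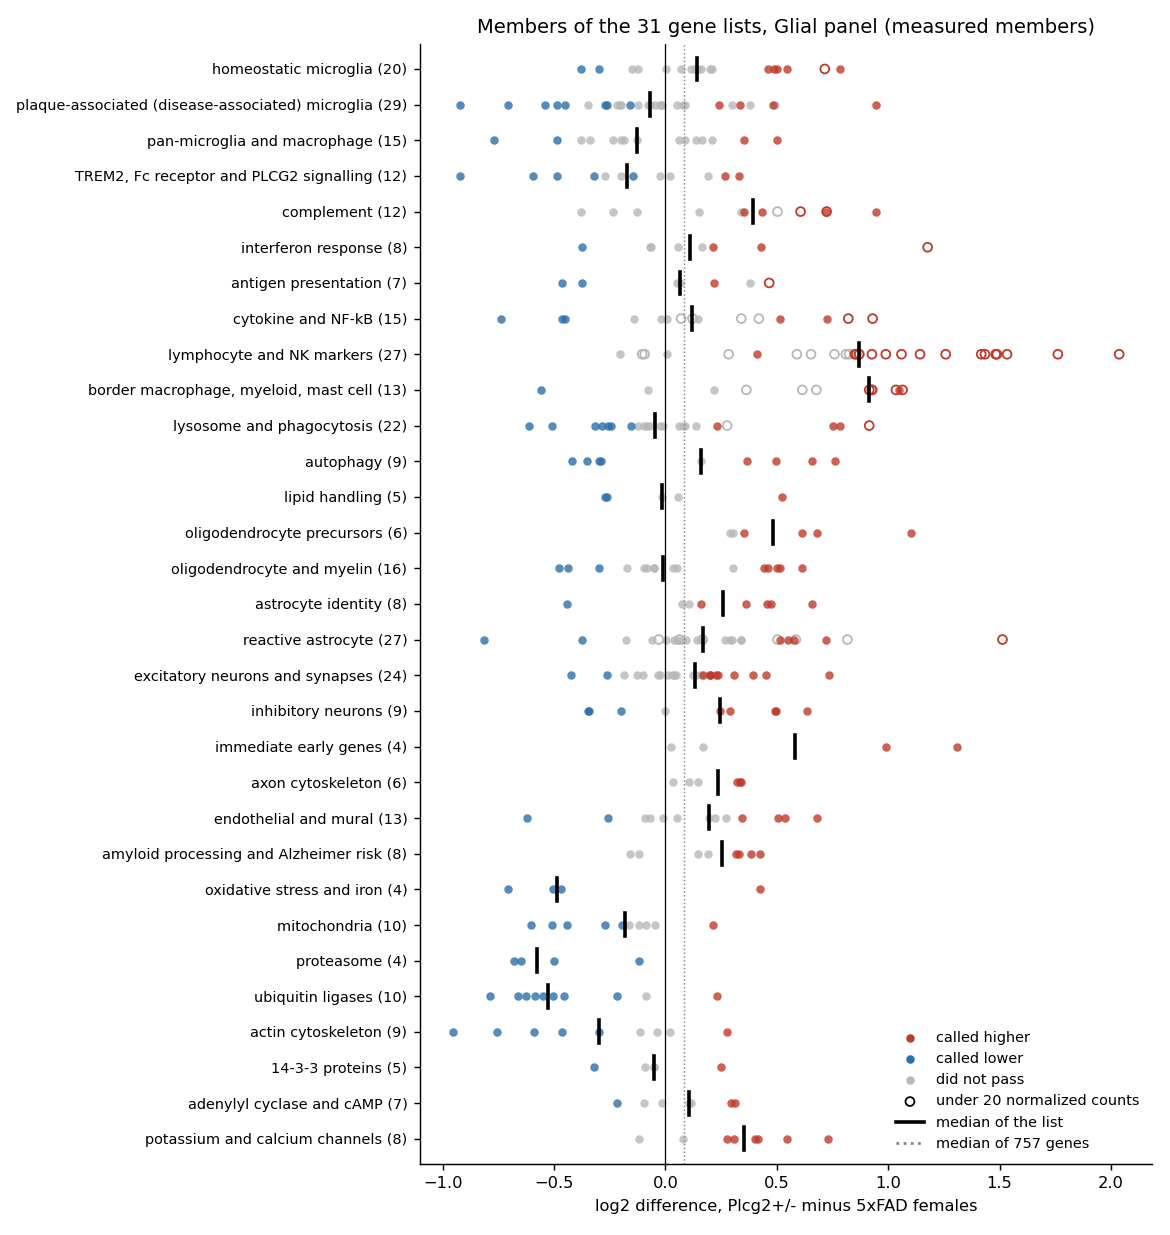
Log2 difference between Plcg2+/- and 5xFAD females (horizontal axis) of each measured member of 31 gene lists (rows, number measured in brackets), red higher, blue lower, grey not passing, open circles under 20 normalized counts, black bars list medians. Proteasome and ubiquitin ligase medians lie near -0.57 and -0.53, precursors at 0.48, and the lymphocyte list at 0.87 consists mostly of open circles.

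The genotype difference of females was set against that of males in the same fit. It differed between the sexes in 166 of 757 genes (21.9%), being more positive in females in 115 and more negative in 51, and 187 genes passed with median centring. Among them 99 passed in females and not in males, and 21 genes passed in both sexes in opposite directions. In males 130 genes were higher and 178 lower in Plcg2+/- mice, with a median difference of -0.002. Total counts on the Glial panel overlapped in males, at 1360757 to 1814975 in Plcg2+/- males and 1428825 to 1775622 in 5xFAD males. The gap in depth between the genotypes was thus present in females alone on this panel. The part that it has in the differences between the sexes, dim genes among them, was not tested.

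The 8 genes with the smallest p for this difference were mostly neuronal or signalling genes. Camk2a differed by 0.45 ± 0.06 in females and -0.15 ± 0.06 in males (adjusted p of the interaction = 0.00012). Shc3, a neuronal adaptor, differed by 0.47 ± 0.08 in females and -0.31 ± 0.08 in males, and the cyclase Adcy1 by 0.30 ± 0.07 and -0.37 ± 0.07. Adcy5, a cyclase rich in striatum, did not pass in females (0.11 ± 0.06) and was lower in males (-0.44 ± 0.06). Flt1 was split most widely of the 8, with 0.54 ± 0.14 in females and -0.71 ± 0.14 in males (adjusted p of the interaction = 0.000181). Psmd6, a proteasome subunit, and Prkag1, a subunit of the energy sensor AMPK, were lower in females by 0.38 ± 0.05 and 0.47 ± 0.06, against differences of 0.09 ± 0.05 and 0.05 ± 0.06 in males. Cables1, a CDK5 partner, rose in females by 0.52 ± 0.05, against 0.04 ± 0.05 in males.

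Several results above belong to those 166 genes and others do not. Clec7a was lower by 0.92 in females, against -0.30 in males, and Grn, Ulk1, Sox10 and Stat3 rose in females by 0.75, 0.66, 0.61 and 0.55, against 0.14, 0.01, 0.11 and 0.04 in males. The interaction passed for each of these 5 genes (adjusted p = 0.012, 0.00818, 0.000439, 0.00425 and 0.00211). It did not pass for Egr1, with 1.31 in females and 0.81 in males (adjusted p = 0.105), for Itgax, with 0.95 in females and 0.62 in males (adjusted p = 0.356), or for Fth1, with -0.71 in females and -0.56 in males (adjusted p = 0.283).

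**Figure D4:**
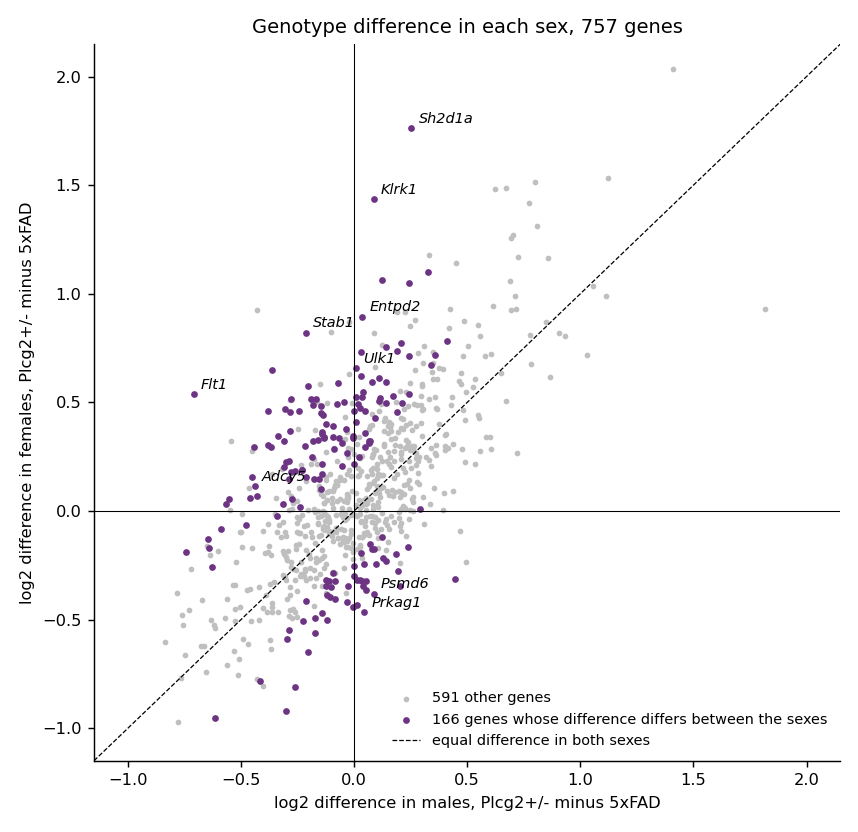
Genotype difference of each gene in females (vertical axis) against males (horizontal axis), log2 Plcg2+/- minus 5xFAD, with the 166 genes whose difference differed between the sexes in purple and the dashed line of equal difference. Flt1 lies at 0.54 in females and -0.71 in males, and Psmd6 and Prkag1 lie below 0 in females and above 0 in males.

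The Neuropathology panel read the same females in a second assay, with 251 genes in common. On it 268 of 760 genes were higher in Plcg2+/- females (35.3%) and 144 lower (18.9%), and totals were again apart, at 1220459 to 1603006 counts in Plcg2+/- females and 528033 to 651615 in 5xFAD females. Because the mice are the same, the second panel repeats the measurement and not the animals. Of the 251 common genes 51 were higher on both panels, 31 were lower on both, and 76 passed on neither. Of the common genes higher on the Glial panel a further 35 did not pass on the Neuropathology panel and 4 were lower there. Of those lower on the Glial panel a further 17 did not pass there and 1 was higher.

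The named genes repeated in part on the second panel, and their counts are to be read against those of all common genes, above. Of the named genes read by both panels 43 were higher on the Glial panel, and of these 27 were higher on the Neuropathology panel, 4 were lower and 12 did not pass. Of the 19 that were lower on the Glial panel 15 were lower on the Neuropathology panel, 1 was higher and 3 did not pass. The 12 were Csf1r and Grn, given above, Tmem119 (0.17 ± 0.14 on the Neuropathology panel), Itgam (0.22 ± 0.13), App (0.14 ± 0.08), Atp6v1a (0.16 ± 0.07), Sqstm1 (0.11 ± 0.10), Entpd2 (0.22 ± 0.12), Flt1 (0.25 ± 0.14), Th (0.33 ± 0.21), Cacnb2 (0.04 ± 0.06) and Nefh (-0.25 ± 0.17). The 3 were Grik2 (-0.10 ± 0.10), Ube2n and Tardbp. Without female 12 Atp6v1a, Itgam and Nefh passed on the Neuropathology panel, at 0.20, 0.32 and -0.39 (adjusted p = 0.0155, 0.0252 and 0.038). Of 14 named genes that did not pass on the Glial panel 2 were higher on the Neuropathology panel, Adcy5 (0.31 ± 0.10, adjusted p = 0.0157) and Jun (0.26 ± 0.11, adjusted p = 0.0457), and 2 were lower, Trem2 and Cx3cr1. The calls for Adcy5 and Jun there were lost with median centring (adjusted p = 0.1 and 0.0793), and the call for Jun without any 1 of 9 females (adjusted p = 0.0501 to 0.123).

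Among the 8 common genes of smallest p on the Glial panel, 6 also passed on the other. Egr1 differed by 1.31 ± 0.16 on the Glial and 1.35 ± 0.15 on the Neuropathology panel, Atg5 by -0.42 ± 0.05 and -0.41 ± 0.08, and Amph, a protein of synaptic vesicle retrieval, by 0.49 ± 0.06 and 0.39 ± 0.05. Shank2 differed by 0.73 ± 0.09 and 0.42 ± 0.16 and Nmnat2, an axon-protecting NAD enzyme, by 0.36 ± 0.05 and 0.12 ± 0.05. On the Neuropathology panel the calls for Shank2 and Nmnat2 were weak (adjusted p = 0.0301 and 0.04997), and each was lost without any 1 of several females, 5 for Shank2 (adjusted p = 0.0522 to 0.0739) and 8 for Nmnat2 (adjusted p = 0.066 to 0.118). The call for Nmnat2 there was also lost with median centring (0.055, adjusted p = 0.538), quantile normalization, a pseudocount of 10, females alone and removal of dim genes (adjusted p = 0.0522 to 0.0842). Ube2n and the RNA-binding protein gene Tardbp passed on the Glial panel alone, with -0.55 ± 0.06 and -0.40 ± 0.05, against -0.01 ± 0.16 and -0.11 ± 0.21 on the Neuropathology panel (adjusted p = 0.977 and 0.654). Outside this rule, and picked after their values were seen, Itgax differed by 0.95 ± 0.18 and 0.91 ± 0.18 and Mtor by 0.76 ± 0.12 and 0.74 ± 0.09, both called on each panel.

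On the 2 panels 5 common genes passed in opposite directions, and they too were named after their values were seen. Aif1 was lower on the Glial panel (-0.77 ± 0.14) and higher on the Neuropathology panel (1.14 ± 0.35), where it was dim, at 6.51 to 17.7 normalized counts (median 15.9) in Plcg2+/- females, against 1.39 to 10.0 (median 7.60) in 5xFAD females. Without 5xFAD female 1249 the Neuropathology difference of Aif1 was 0.72 (adjusted p = 0.0128), and with quantile normalization it was 0.17 and did not pass (adjusted p = 0.632). A floor of 20 left by construction no difference for Aif1 there. Sox9 was higher on the Glial panel (0.46 ± 0.10) and lower on the Neuropathology panel (-0.67 ± 0.20). Prkacb differed by 0.31 ± 0.06 and -0.59 ± 0.20, Cdk5r1 by 0.33 ± 0.06 and -0.34 ± 0.14, and Nptn, a synaptic adhesion molecule, by 0.17 ± 0.07 and -0.26 ± 0.08. The calls for Cdk5r1 on the Neuropathology panel and Nptn on the Glial panel were close to the threshold (adjusted p = 0.0481 and 0.0469), and were lost without any 1 of 11 and of 9 females. The call for Nptn on the Glial panel was also lost with median centring (0.11, adjusted p = 0.151) and with quantile normalization (adjusted p = 0.0644). For Sox9 on the Neuropathology panel female 12 had 378 normalized counts, the highest of its genotype and inside the 292 to 402 of 5xFAD females. Probe sequences were not used here, and the cause of the opposite directions was not tested.

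**Figure D5:**
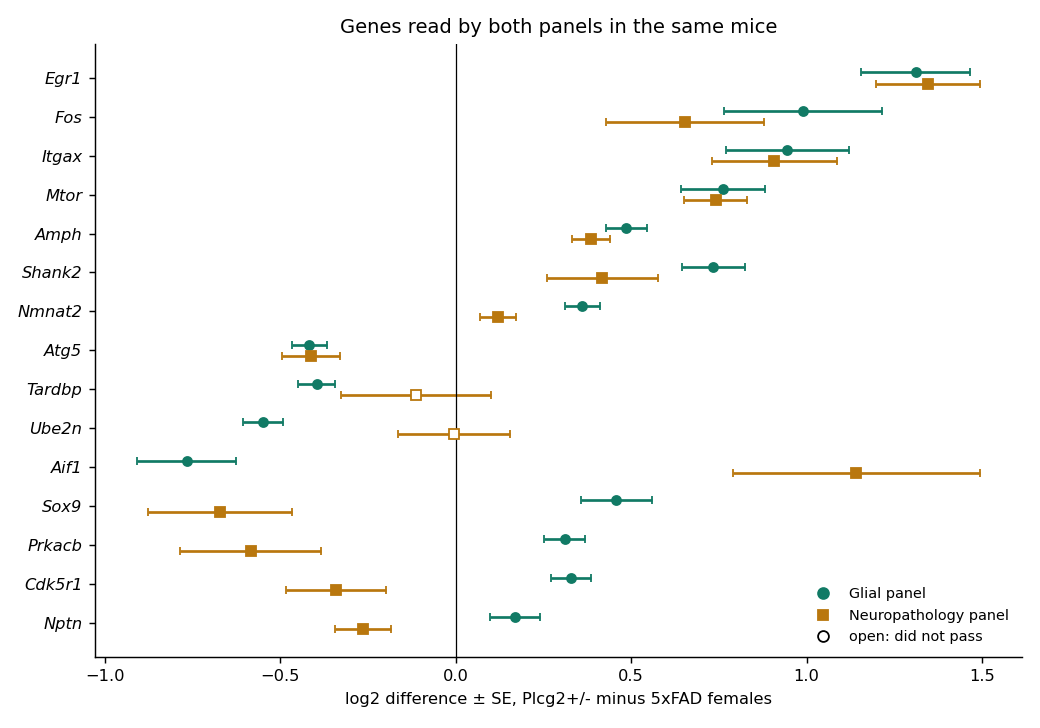
Log2 difference between Plcg2+/- and 5xFAD females with its standard error (horizontal axis) for 15 genes on the Glial panel (circles) and the Neuropathology panel (squares), open symbols not passing. Egr1, Itgax, Mtor, Amph and Atg5 lie close together on both, whereas Aif1, Sox9, Prkacb, Cdk5r1 and Nptn lie on opposite sides of 0.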

How the data were processed

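The deposited values are log2 normalized nCounter counts of mouse cortex RNA, extracted with the Purelink RNA Mini Kit and run with the standard NanoString protocol, per the labels' protocols. How the authors normalized them (software, reference genes, settings) is not given in the sources used here. All values of a sample were whole numbers times 1 factor (tolerance 0.05), so counts and totals were recovered as sums over the panel's genes. Columns not used numbered 0. Of 757 names 752 matched the RefSeq annotation, 1 matched a synonym and 4 did not match.

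Groups were genotype by sex, from the labels. Each panel's 24 samples entered a linear fit of 4 group means (limma 3.58.1, R 4.3.3, moderated by eBayes), which had been tested on simulated data. P-values were adjusted over each panel's genes by the Benjamini-Hochberg method and genes called under 0.05, with no filter. Errors are standard errors of the fit, with 6 mice per group. Exact permutation tests used scipy 1.17.1.

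Genes were named by rule: the 12 highest and 12 lowest called brighter genes, the 6 highest called dim genes (none was lower), up to 5 called members of smallest p in each of 31 lists, the 8 smallest interaction p and the 8 smallest p among genes of both panels. Some genes that these rules pick are not reported here. Members that complete a short count were named after their values were seen. The comparison, lists and rules were chosen with earlier results of these data known. Alternatives were median and upper-quartile centring, quantile normalization, removal of dim genes, a floor of 20, a pseudocount of 10, array weights, eBayes with its trend and robust options, voom on recovered counts, females alone, and leaving out each female.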

Additional observations from a re-analysis of the deposited data

Results flagged for a closer look

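Samples that lay far from their group were looked for in every named gene, as a gap to the nearest mouse that takes up more of the range of the 6 mice than Dixon's 95% limit allows. This happened in 35 of 384 groups of values (9.11%), 22 of Plcg2+/- females and 13 of 5xFAD females, and chance alone flags about 1 group in 20. In 20 of the 35 the distant mouse was Plcg2+/- female 12.

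On the Glial panel female 12 was the lowest of its genotype with gap shares of 0.857 for Mtor, 0.703 for Sh2d1a, 0.731 for C4a/b, 0.646 for Pdgfra and 0.696 for Ptprz1. It was the highest with 0.74 for Arpc5l, 0.685 for C1qb, 0.697 for Atp6v1e1, 0.779 for Atp6v1h, 0.728 for Atp5b and 0.682 for Ube2n. On the Neuropathology panel it was the highest with 0.847 for Arc, 0.653 for Nr4a2, 0.732 for Sox9, 0.815 for Cx3cr1, 0.756 for Csf1r, 0.712 for Grn, 0.795 for Sqstm1 and 0.707 for Jun and the lowest with 0.715 for Mtor. For Arc, Nr4a2, Jun and Sqstm1 female 12 lay above the other Plcg2+/- females and above every 5xFAD female. In the other genes it was displaced toward the 5xFAD females, and for C1qb, and for Csf1r and Grn on the Neuropathology panel, it lay above all of them. Female 18 was the lowest Plcg2+/- female for Ccl12 (0.897). Female 51 was the lowest Plcg2+/- female for Bdnf (0.78).

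Among 5xFAD females, 1189 was the lowest on the Glial panel with 0.669 for Prkag1 and the highest on the Glial panel with 0.647 for Mtor and 0.656 for Nmnat2 and the highest on the Neuropathology panel with 0.63 for Mtor. Among 5xFAD females, 1180 was the lowest on the Glial panel with 0.681 for Grn, 0.739 for Mag, 0.642 for Egfr, 0.696 for Nefl and 0.763 for Atp6v1a. Among 5xFAD females, 1253 was the lowest on the Glial panel with 0.767 for Ptprz1. Among 5xFAD females, 1190 was the lowest on the Glial panel with 0.65 for Jun and the highest on the Glial panel with 0.679 for Hmox1. Among 5xFAD females, 1249 was the lowest on the Neuropathology panel with 0.763 for Aif1.

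The genotype difference of females minus that of males passed the interaction test for 65 of the 157 genes named on the Glial panel. Among all 757 genes 166 passed (21.9%). The naming rules pick called female differences and the smallest interaction p from the same fit, so the share among named genes is not a separate result. Each value below is the difference of females minus that of males on the log2 scale, positive where the difference of females was the more positive. In microglial and immune genes it was 0.37 for Mertk, 0.36 for Csf1r, 0.41 for Rhob, 0.67 for Sall1, 0.49 for Itgam, 0.52 for C1qc and 0.36 for H2-D1. Those more negative in females were -0.62 for Clec7a and -0.38 for Fcgr1. In scarce immune and border cell markers it was 1.51 for Sh2d1a, 1.35 for Klrk1, 0.94 for Fpr1, 0.81 for Cd163 and 1.03 for Stab1, and -0.39 for Hsd11b1. Lysosomal and autophagy genes gave 0.62 for Grn, 0.65 for Ulk1, 0.28 for Tsc1, -0.39 for Atg5 and -0.19 for Atp6v1d. In the oligodendrocyte lineage the values were 0.77 for Gpr17, 0.50 for Sox10, 0.46 for Myrf, 0.58 for Mag and 0.47 for Mbp. Astrocyte and vascular genes gave 0.45 for Aldh1l1, 0.74 for Sox9, 0.51 for Stat3, 0.78 for Nes, 0.57 for Etv5, 0.86 for Entpd2, 0.40 for Tjp1, 1.25 for Flt1, 0.37 for Vegfa and -0.55 for S100a10. Neuronal and signalling genes gave 0.55 for Shank2, 0.60 for Camk2a, 0.40 for Nefh, 0.47 for Ank2, 0.63 for Nefl, 0.70 for Kcnd1, 0.31 for Nmnat2, 0.49 for Cdk5r1, 0.49 for Cables1 and 0.78 for Shc3. For cyclic AMP, AMPK and 14-3-3 genes it was 0.67 for Adcy1, 0.55 for Adcy5, 0.24 for Prkacb, -0.51 for Prkag1 and -0.35 for Ywhaq. Mitochondrial and redox genes gave -0.28 for Tomm20, -0.44 for Vdac3, -0.23 for Ndufa10, 0.22 for Slc25a12 and -0.33 for Txn1. In protein turnover, actin and RNA-binding genes it was -0.38 for Psmd14, -0.44 for Psmc6, -0.24 for Psmc2, -0.47 for Psmd6, -0.37 for Skp1a, -0.26 for Ube2n, -0.34 for Tmsb4x, -0.29 for Arpc1a, -0.30 for Cdc42 and -0.29 for Tardbp. All of this last group were more negative in females.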

How the results depend on the processing

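The counts of genes kept within 1.5 times their reported value under every alternative run, with 1 exception: with array weights 256 genes differed between the sexes on the Glial panel, against 166. Leaving out each female in turn gave 239 to 272 higher and 142 to 158 lower genes on the Glial panel, 145 to 191 that differed between the sexes, 240 to 273 higher and 126 to 178 lower genes on the Neuropathology panel, and a difference in mean total count of 678174 to 735304. Without Plcg2+/- female 12 and Plcg2+/- male 3 together, an alternative chosen after seeing the data, 231 genes differed between the sexes. Quantile normalization gave 201 higher and 182 lower genes on the Glial panel, and 179 higher and 163 lower on the Neuropathology panel. Also on the Neuropathology panel, upper-quartile centring gave 323 higher and 107 lower, and array weights 304 higher and 213 lower. Of 159 named results that passed, 123 kept their call in every alternative. Quantile normalization ended 22 of the calls and reversed 2, to -0.0718 for Cfi and -0.0438 for Cpa3, and the floor of 20 ended 20, of which 16 had by construction no difference left and 4 kept one (Th, H2-D1, and Cdk5r1 and Jun on the Neuropathology panel, adjusted p = 0.0514 to 0.0576). Other causes were not tested. No paired analysis was possible because the genotypes share no animal numbers. For the 70 dim genes 5xFAD females had a median of 4 to 6 recovered counts, which limits their precision.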
